A study of Mus musculus with 6 samples.

Results

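The 10 genes described here belong to the interleukin-6 (IL-6) arm of liver signalling: the receptor subunits Il6ra, Il6st, Lifr and Osmr, the transcription factor Stat3, its feedback inhibitor Socs3, and the hepatocyte target genes Steap4, Serpina3n, Mt1 and Mt2. They were taken by symbol from a table of read counts for 52550 gene identifiers, and all 10 were found in it. Livers came from 3 mice carrying the Slc7a11-LTG transgene (TG) and 3 controls (WT). All were male, 8 weeks old and fed for 1 week on MCD, a diet that lacks methionine and choline. Both groups received this diet, so the comparison is of the transgene on MCD, and no other diet enters it. The promoter that drives the transgene, the cells it acts in and the strain background are not given in the labels. Of the 10 genes, 9 passed the filter on low counts and were tested, of 14031 genes in all. Mt2 did not pass it.

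IL-6 binds its receptor subunit, encoded by Il6ra, and the complex draws in gp130, encoded by Il6st, which carries the signal. Janus kinases bound to gp130 phosphorylate STAT3, which enters the nucleus as a dimer and switches on target genes. In hepatocytes these include secreted acute phase proteins and Socs3, whose product binds gp130 and its kinases and shuts the signal off. Oncostatin M and leukaemia inhibitory factor use gp130 too, paired with the receptors encoded by Osmr and Lifr.

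In TG livers the mean levels of Osmr, Socs3, Steap4 and Mt1 stood 2.68-fold to 4.45-fold above those of WT livers, and Serpina3n stood 2.35-fold above. Il6ra stood lower, with a log2 fold change of -0.64, and Il6st, Lifr and Stat3 were within 0.32 of their WT levels on that scale. Without 1 liver, TG replicate 2, the log2 fold changes of Socs3, Steap4 and Serpina3n fell to 0.47, 0.56 and 0.31. Those of Osmr and Mt1 were then 1.01 and 1.59, and that of Il6ra was -0.89. Of the 9 tested genes, none passed the threshold after adjustment over all genes (edgeR's quasi-likelihood test with Benjamini-Hochberg adjustment), and the share of all tested genes past that threshold was 0%. At an unadjusted p under 0.05, 4 of the 9 were higher in TG livers, namely Osmr, Mt1, Steap4 and Socs3, and none was lower. The background was 8.68% of all tested genes higher and 2.37% lower. With library size alone in place of TMM scaling these shares were 9.37% and 0.677%, the median of all genes moved by 0.12 on the log2 scale, and Serpina3n joined the 4. DESeq2 called none of the 9 at an adjusted p under 0.05, against a background of 2.46% higher and 0.255% lower, and had 6 of them at an unadjusted p under 0.05, Il6ra lower and Osmr, Mt1, Steap4, Socs3 and Serpina3n higher (background 9.16% higher, 3.21% lower). With 1 liver left out, the genes past an unadjusted edgeR p of 0.05 changed. Leaving out TG replicate 1 gave 3 higher genes, Socs3, Osmr and Steap4 (background 6.13% higher, 1.66% lower). Leaving out TG replicate 2 gave 1 lower gene, Il6ra (background 3.95% higher, 1.33% lower), and leaving out TG replicate 3 gave 5 higher genes, Serpina3n with the 4 (background 9.91% higher, 3.11% lower). Leaving out WT replicate 1 gave 1 higher gene, Osmr (background 6.99% higher, 2.53% lower), and leaving out WT replicate 2 gave Osmr and Mt1 (background 5.4% higher, 1.7% lower). Leaving out WT replicate 3 gave Osmr and Steap4 as higher and Il6ra as lower (background 10.2% higher, 5.94% lower). All 3 TG livers lay above all 3 WT livers for 2 of the 9, Osmr and Steap4, and below them for none, against 9.19% and 6.15% of all tested genes.

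Slc7a11, the gene of the transgene and of the cystine-glutamate exchanger subunit xCT, held 24359 to 72729 counts in TG and 44 to 204 counts in WT livers, as the labels imply. Libraries held between 16016640 and 17463329 counts. At this depth 3 counts correspond to between 0.152 CPM, in TG replicate 3, and 0.227 CPM, in WT replicate 2. CPM are counts scaled to a common library size, here with TMM, and this limit covers counting error only. Hepatocyte marker genes were abundant in all 6 libraries, with 14 of 15 matched by symbol and summed levels of 110582 to 129103 CPM in TG and 112572 to 206082 CPM in WT livers. Of these 14, 12 had a negative log2 fold change, with a median of -0.43 and between -0.68 and -0.11 with 1 liver left out, and none passed an unadjusted edgeR p of 0.05 or a DESeq2 adjusted one. All 16 macrophage marker genes were higher in TG livers at an unadjusted edgeR p under 0.05, against 8.68% of all tested genes. Their median log2 fold change was 2.12. Their summed level was 2488, 4258 and 770 CPM in TG replicates 1 to 3, against 542, 453 and 759 CPM in WT replicates 1 to 3. The 11 neutrophil marker genes summed to 140, 270 and 6.35 CPM in the same TG livers, against 9.52, 3.33 and 6.08 CPM in the WT livers, and Mpo and Ly6g were at 0 counts in every WT liver. Elane, Camp and Ngp were at 0 counts in TG replicate 3. Both marker sums were thus highest in TG replicate 2, next in TG replicate 1, and in TG replicate 3 just above the WT range for macrophages and within it for neutrophils. The part of these cells in the results on the 10 genes was not tested. A whole liver sample cannot tell fewer cells of a type from less RNA per cell.

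The promoters of 3 target genes are shown because their genes stood highest in TG replicate 2 and because the windows hold the letters that STAT factors or the zinc sensor MTF-1 are known to bind. Sequences are RefSeq windows of build GRCm38.p6, 250 bases before to 50 bases after the gene's start, read 5′ to 3′ on the gene's strand. The start is that of RefSeq, which for Socs3 lies 681 bases inside the GENCODE gene, so its window lies within that gene. For Steap4 and Mt1 the RefSeq start lies 15 and 7 bases inside. Capitals mark TTCNNNGAA, the STAT consensus, in Socs3 (chr11:117969317-117969616, minus strand) and Steap4 (chr5:7960222-7960521, plus strand). In Mt1 (chr8:94178839-94179138, plus strand) they mark TGCACNC or TGCGCNC, the core of the metal response element.
Socs3: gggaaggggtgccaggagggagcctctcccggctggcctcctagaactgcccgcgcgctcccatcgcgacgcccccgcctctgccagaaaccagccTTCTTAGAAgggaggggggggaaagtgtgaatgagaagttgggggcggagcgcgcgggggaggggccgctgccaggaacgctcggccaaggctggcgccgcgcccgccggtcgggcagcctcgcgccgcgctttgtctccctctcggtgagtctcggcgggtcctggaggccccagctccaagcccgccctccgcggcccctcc
Steap4: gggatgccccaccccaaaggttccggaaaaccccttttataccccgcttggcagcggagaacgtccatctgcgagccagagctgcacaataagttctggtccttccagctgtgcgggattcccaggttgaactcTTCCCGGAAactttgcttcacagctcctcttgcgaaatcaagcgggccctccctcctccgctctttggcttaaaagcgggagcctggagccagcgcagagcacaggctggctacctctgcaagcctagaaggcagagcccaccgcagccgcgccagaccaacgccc
Mt1: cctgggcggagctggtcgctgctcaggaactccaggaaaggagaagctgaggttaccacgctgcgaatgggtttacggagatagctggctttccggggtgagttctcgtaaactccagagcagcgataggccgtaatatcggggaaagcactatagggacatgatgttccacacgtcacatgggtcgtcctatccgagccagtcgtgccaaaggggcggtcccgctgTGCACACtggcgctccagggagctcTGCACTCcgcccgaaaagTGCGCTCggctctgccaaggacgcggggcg
Both strands were searched in 11 windows of the 10 genes, Lifr having 2 of them. TTCNNNGAA, which reads the same on both strands, occurred in Socs3 and Steap4 only, first base at -154 and -116 from the start, and in 8.3% of 32851 windows of all genes. The windows of Il6ra, Il6st, Lifr, Osmr, Stat3, Serpina3n, Mt1 and Mt2 did not hold these letters. The RefSeq start of Osmr lies 656 bases inside the GENCODE gene, and those of Lifr lie 38958 and 49928 bases inside. The GENCODE starts of these genes were therefore not searched. TGCACNC or TGCGCNC occurred 3 times in Mt1, at -23, 3 and 21, 4 times in Mt2 and 3 times in 1 window of Lifr, against 25.7% of all windows with at least 1 match and 1.97% with 3 or more. A match describes letters in a window and not a bound site.

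Il6ra (ENSMUSG00000027947, chromosome 3, 89864059 to 89913196, minus strand, positions in build mm10 with the GENCODE annotation) encodes the subunit that binds IL-6 itself. It had 51.6, 83.2 and 52.6 CPM in TG replicates 1 to 3, against 110.4, 113 and 68.0 CPM in WT replicates 1 to 3. TG replicates 1 and 3 lay below every WT liver, and TG replicate 2 lay within the WT range, so the groups overlapped. Il6ra averaged 62.5 ± 18.0 CPM in TG against 97.0 ± 25.2 CPM in WT livers (SD, n = 3 each). The log2 fold change was -0.64 with a standard error (SE) of 0.28, and edgeR gave an unadjusted p of 0.0534 and an adjusted p of 0.461. Il6ra was the only receptor gene of the 4 with a lower mean outside 1 SE, and its sign stayed negative under all 14 alternatives, between -0.89 and -0.48. The hepatocyte markers had a median of -0.43, as given above, and their part in the Il6ra value was not tested.

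Il6st (ENSMUSG00000021756, chromosome 13, 112464070 to 112510086, plus strand) encodes gp130, the shared signalling subunit. Its levels were 139.8, 196.3 and 178 CPM in TG replicates 1 to 3, against 174.6, 112 and 177.2 CPM in WT replicates 1 to 3. The lowest value belonged to WT replicate 2, and the other 5 livers were mixed. The log2 fold change was 0.15 with an SE of 0.25 (edgeR adjusted p = 0.866), and it was -0.04 without WT replicate 2. Lifr (ENSMUSG00000054263, chromosome 15, 7090614 to 7197489, plus strand), which pairs with gp130 for leukaemia inhibitory factor, was as close: 128.3, 101.9 and 115 CPM in TG replicates 1 to 3, against 119.1, 130.3 and 104.4 CPM in WT replicates 1 to 3. Here too the groups overlapped, and the log2 fold change, -0.03 with an SE of 0.18 (edgeR adjusted p = 0.963), was 0.10 with library size alone.

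Osmr (ENSMUSG00000022146, chromosome 15, 6813577 to 6874969, minus strand), the receptor that pairs with gp130 for oncostatin M, was the receptor gene that stood higher in TG livers. It had 9.90, 17.9 and 7.31 CPM in TG replicates 1 to 3, against 3.43, 2.72 and 6.50 CPM in WT replicates 1 to 3. All 3 TG livers lay above all 3 WT livers, though TG replicate 3 was only just above WT replicate 3. Osmr averaged 11.7 ± 5.50 CPM in TG against 4.22 ± 2.01 CPM in WT livers (SD, n = 3 each), 2.75-fold higher. The log2 fold change was 1.46 with an SE of 0.45 (edgeR unadjusted p = 0.0135, adjusted p = 0.353), DESeq2 gave an adjusted p of 0.0694, and the value was 1.01 without TG replicate 2. Osmr is known to be carried by stromal and endothelial cells as well as hepatocytes; 4 of the 11 stellate cell and fibroblast markers and 1 of 9 endothelial markers were higher at an unadjusted edgeR p under 0.05, against the background of 8.68%. Median log2 fold changes were 0.53 for the stellate list, 0.31 to 0.70 with 1 liver left out, and 0.21 for the endothelial list, which was -0.19 without WT replicate 2 and -0.02 without TG replicate 3.

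**Figure D1:**
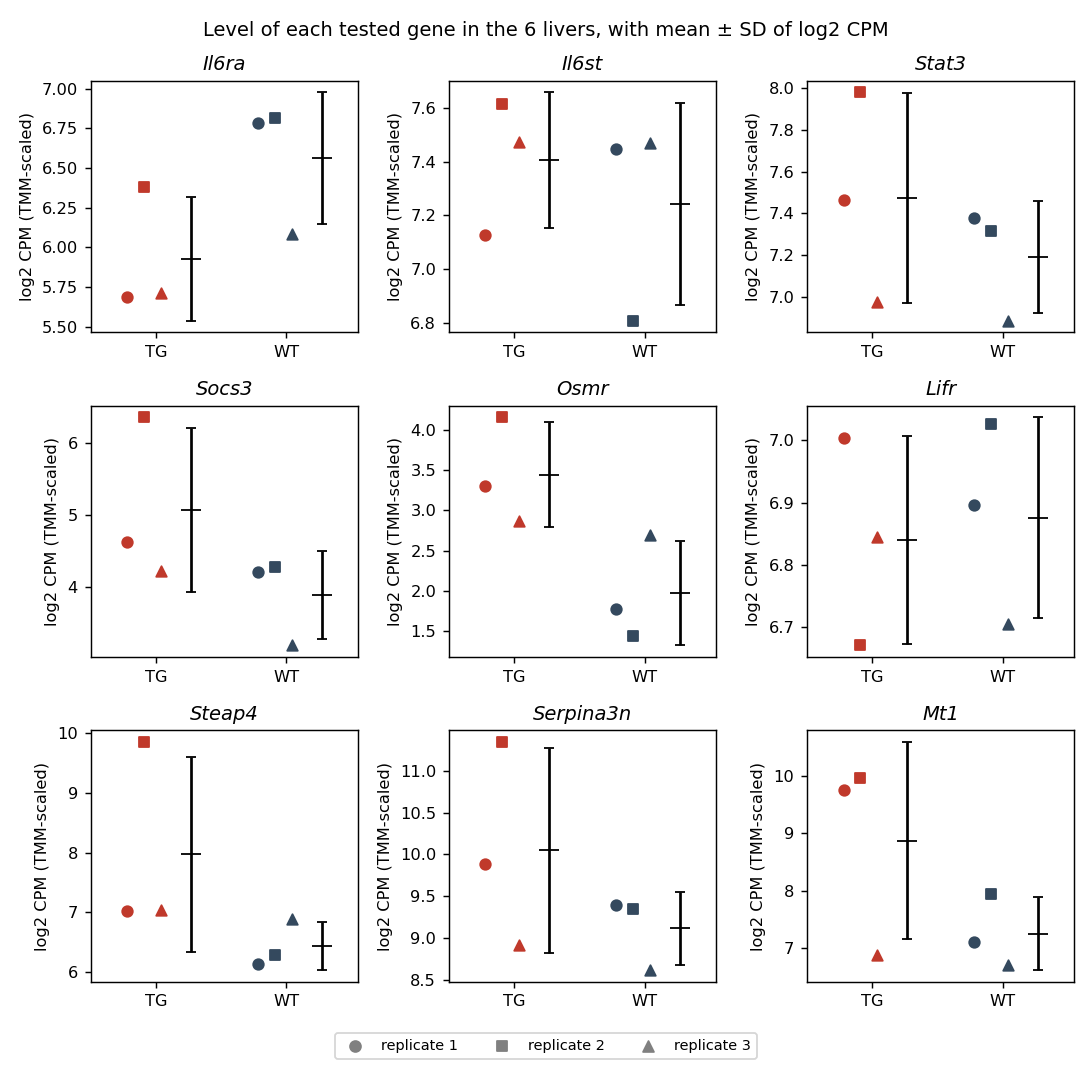
Level of each of the 9 tested genes as log2 CPM (vertical axis) in TG livers (red, left) and WT livers (blue, right), with marker shape for the replicate number and bars for mean ± SD of the 3 livers; the vertical axes differ and do not start at 0. For Osmr and Steap4 all TG livers lie above all WT livers, and TG replicate 2 is the highest liver for every gene except Il6ra and Lifr.

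Across the receptor subunits, the ratio of counts within a library does not depend on scaling. Osmr counts were 7.71%, 17.5% and 6.36% of Lifr counts in TG replicates 1 to 3, against 2.88%, 2.09% and 6.23% in WT replicates 1 to 3. The mean log2 ratio was 1.51 higher in TG livers, and the groups did not overlap (exact two-sided permutation test, p = 0.1, 0.133 after Benjamini-Hochberg adjustment over 4 ratios). With 3 against 3 livers 0.1 is the smallest p this test can give. Il6st counts were 271%, 236% and 339% of Il6ra counts in TG livers and 158%, 99.4% and 261% in WT livers. The groups overlapped through WT replicate 3, and the difference of 0.80 on the log2 scale had an exact permutation p of 0.2, and 0.2 after adjustment.

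Stat3 (ENSMUSG00000004040, chromosome 11, 100885098 to 100939540, minus strand) stood little apart. It had 176.3, 252.4 and 125.7 CPM in TG replicates 1 to 3, against 166.2, 159.2 and 118.2 CPM in WT replicates 1 to 3. TG replicate 2 was the highest liver and WT replicate 3 the lowest, with TG replicate 3 inside the WT range. Its log2 fold change was 0.32 with an SE of 0.29 (edgeR adjusted p = 0.733), and 0.03 without TG replicate 2. Transcript counts do not report the phosphorylation through which STAT3 acts. Exons of Stat3 and Stat5a overlap on opposite strands over 0.756% of the exon bases of Stat3, and the strand setting of the counting is unknown.

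Socs3 (ENSMUSG00000053113, chromosome 11, 117966079 to 117970047, minus strand) encodes the inhibitor that STAT3 induces against its own signal. It had 24.6, 82.2 and 18.6 CPM in TG replicates 1 to 3, against 18.4, 19.4 and 9.05 CPM in WT replicates 1 to 3. TG replicate 2 held 3.34 times the next-highest TG liver, while TG replicate 3 lay within the WT range. Socs3 averaged 41.8 ± 35.1 CPM in TG against 15.6 ± 5.70 CPM in WT livers (SD, n = 3 each), 2.68-fold higher. On the log2 scale the difference of 1.42, SE 0.59, had an edgeR unadjusted p of 0.0441 and an adjusted p of 0.433, and it was 0.47 without TG replicate 2.

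Set against Stat3 in the same library, Socs3 separated the groups. Socs3 counts were 14%, 32.6% and 14.8% of Stat3 counts in TG replicates 1 to 3, against 11.1%, 12.2% and 7.66% in WT replicates 1 to 3. The mean log2 ratio was 0.90 higher in TG livers (exact permutation p = 0.1, 0.133 after adjustment), and 0.51 higher without TG replicate 2. Relative to Il6ra the gap was wider, since Socs3 counts were 47.6%, 98.8% and 35.4% of Il6ra counts in TG livers and 16.7%, 17.2% and 13.3% in WT livers. Every TG value was above every WT value, by 1.82 on average on the log2 scale (exact permutation p = 0.1, 0.133 after adjustment). Without TG replicate 2 that difference was 1.39.

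**Figure D2:**
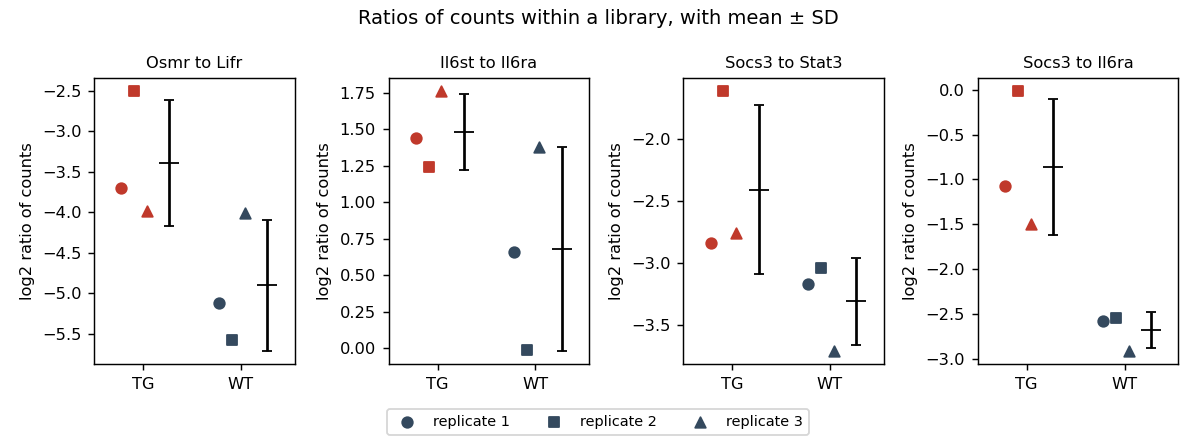
Log2 ratio of the counts of 2 genes within each library (vertical axis, not starting at 0) in TG livers (red, left) and WT livers (blue, right), with marker shape for the replicate number and bars for mean ± SD of 3 livers. The ratios of Osmr to Lifr, Socs3 to Stat3 and Socs3 to Il6ra do not overlap between groups, and the ratio of Il6st to Il6ra does.

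Steap4 (ENSMUSG00000012428, chromosome 5, 7960457 to 7982213, plus strand) encodes a metalloreductase of iron and copper that is induced by inflammatory cytokines in liver. It had 130.8, 926.6 and 131.1 CPM in TG replicates 1 to 3, against 70.2, 77.8 and 118.9 CPM in WT replicates 1 to 3. All TG livers lay above all WT livers, TG replicates 1 and 3 by little, and TG replicate 2 held 7.07 times the next-highest TG liver. Steap4 averaged 396.2 ± 459.4 CPM in TG against 89.0 ± 26.2 CPM in WT livers (SD, n = 3 each), 4.45-fold higher. The log2 fold change was 2.15 with an SE of 0.79 (edgeR unadjusted p = 0.0285, adjusted p = 0.391), with an adjusted p of 0.0649 from DESeq2. Without TG replicate 2 it was 0.56, with an edgeR adjusted p of 0.935.

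Serpina3n (ENSMUSG00000021091, chromosome 12, 104406729 to 104414329, plus strand), a secreted serine protease inhibitor and a mouse relative of human alpha-1-antichymotrypsin, is made and secreted by hepatocytes in the acute phase. It had 942.8, 2607 and 481.5 CPM in TG replicates 1 to 3, against 671.4, 652.2 and 391.5 CPM in WT replicates 1 to 3. TG replicates 1 and 2 lay above every WT liver and TG replicate 3 lay between WT livers. Its log2 fold change was 1.23 with an SE of 0.61 (edgeR unadjusted p = 0.0805, adjusted p = 0.524), and 0.31 without TG replicate 2. Of the 50-base windows of its transcripts, 6.9% also occur in other genes, most of all in Serpina3e-ps, Serpina3g and Serpina3c. A small share of its reads may thus not be placed with certainty.

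Mt1 (ENSMUSG00000031765, chromosome 8, 94179082 to 94180327, plus strand) encodes a small cysteine-rich protein that binds zinc, and is induced by zinc, glucocorticoids and IL-6. It had 867.2, 1001 and 119 CPM in TG replicates 1 to 3, against 138, 247.4 and 104.7 CPM in WT replicates 1 to 3. TG replicates 1 and 2 were close to each other and above every WT liver, and TG replicate 3 was within the WT range. Mt1 averaged 662.3 ± 475.2 CPM in TG against 163.4 ± 74.6 CPM in WT livers (SD, n = 3 each), 4.06-fold higher, with a log2 fold change of 2.02 and an SE of 0.74. EdgeR gave an unadjusted p of 0.0278 and an adjusted p of 0.388, and DESeq2 an adjusted p of 0.0649. Without TG replicate 3, the log2 fold change was 2.49 with an edgeR adjusted p of 0.0378, the 1 value among the 9 genes past the threshold, in a fit with 1.99% of all tested genes called higher. Without TG replicate 2 it was 1.59.

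Mt2 (ENSMUSG00000031762, chromosome 8, 94172664 to 94173568, plus strand), the neighbour of Mt1 with the same zinc-binding role, had 1 count in TG replicate 1 and 0 counts in each of the other 5 livers, while Mt1 had 14280, 17708 and 2344 counts in TG and 2173, 3270 and 2014 counts in WT livers. No fold change or ratio to Mt1 was possible from 1 count. An annotated antisense gene, Gm45774, covers 73.5% of the exon bases of Mt2, and no annotated gene overlaps Mt1. Gm45774 had 6, 14 and 1 counts in TG livers and 3, 0 and 5 in WT livers. How the counting treated reads in both genes is unknown, and its part in the Mt2 count was not tested.

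**Figure D3:**
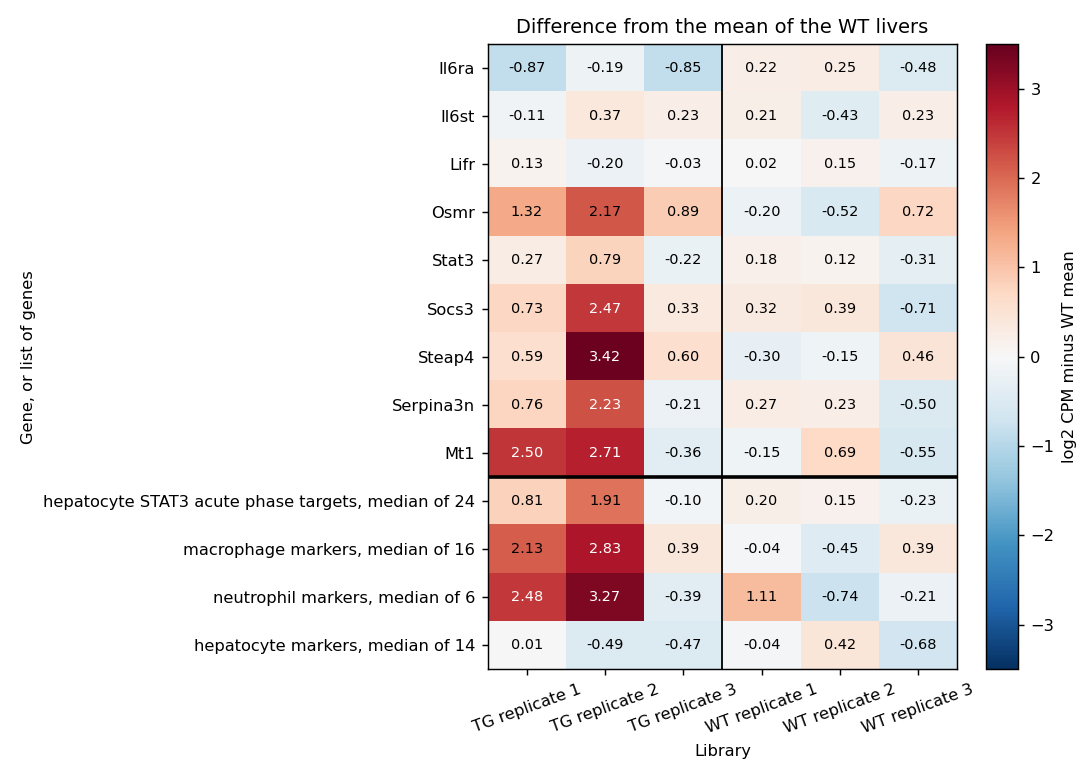
Log2 CPM of each gene in each library (columns, TG left of WT) minus the mean of the WT livers, with the value printed in each cell; below the thick line, the median of the same quantity over 4 lists of genes. TG replicate 2 holds the highest values of Osmr, Stat3, Socs3, Steap4, Serpina3n and Mt1, and TG replicate 3 lies between -0.36 and 0.89 for these 6 genes.

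The TG livers differed among themselves more than the WT livers did for the inducible genes. Relative to the WT mean, Socs3 stood at 0.73, 2.47 and 0.33 on the log2 scale in TG replicates 1 to 3, and Serpina3n at 0.76, 2.23 and -0.21. Mt1 was alike in the first 2 of these livers, at 2.50, 2.71 and -0.36. The order of the TG livers for Socs3, Serpina3n and Mt1, and also for Osmr and Stat3, was that of the macrophage and neutrophil marker sums. The share of all genes with this order was not counted. Steap4 did not share this order, at 0.59, 3.42 and 0.60, with TG replicates 1 and 3 alike. Compared over the 6 libraries by the root mean square difference of centred log2 CPM among 13027 genes, the genes with the pattern most like Socs3 were Tifa (0.147), an adaptor of innate immune signalling, Serpina3n (0.231) and the sugar phosphate transporter gene Slc37a1 (0.250). Among the genes close to Serpina3n were the protease gene Ctsc (0.156) and Nfasc (0.186), which encodes a cell adhesion protein. Tifa had 33.8, 125.5 and 33.6 CPM in TG livers and 27.1, 31.8 and 16.4 CPM in WT livers. Ctsc had 252.6, 533.7 and 133.8 CPM in TG livers and 156.1, 145.1 and 101.2 CPM in WT livers. Both were picked for this likeness.

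Per kilobase of annotated exon, a scale on which genes can be set beside each other, Serpina3n led with 651 ± 542 CPM per kb in TG and 277 ± 75.7 in WT livers (SD, n = 3 each). Mt1 followed with 532 ± 381 in TG and 131 ± 59.9 in WT livers, and Steap4 with 126 ± 146 in TG and 28.2 ± 8.30 in WT livers. The 1246 exon bases annotated for Mt1 cover its whole gene. A shorter spliced transcript would place Mt1 higher on this scale, so its rank against Serpina3n depends on the annotation. In TG livers the SDs of these 3 overlapped, but they measure spread between livers and do not compare genes within a liver. Stat3 (19.4 ± 6.70 in TG, 15.5 ± 2.72 in WT) and Il6st (15.4 ± 2.60 in TG, 13.9 ± 3.33 in WT) came next, within each other's spread. Socs3 stood at 14.5 ± 12.2 CPM per kb in TG and 5.40 ± 1.97 in WT livers. Below Stat3 and Il6st in WT livers came Il6ra (7.23 ± 2.08 in TG, 11.2 ± 2.92 in WT) and Lifr (10.7 ± 1.22 in TG, 10.9 ± 1.21 in WT), which differed in WT livers by less than their spread. Osmr was far below all of these, at 0.965 ± 0.454 CPM per kb in TG and 0.348 ± 0.166 in WT livers.

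**Figure D4:**
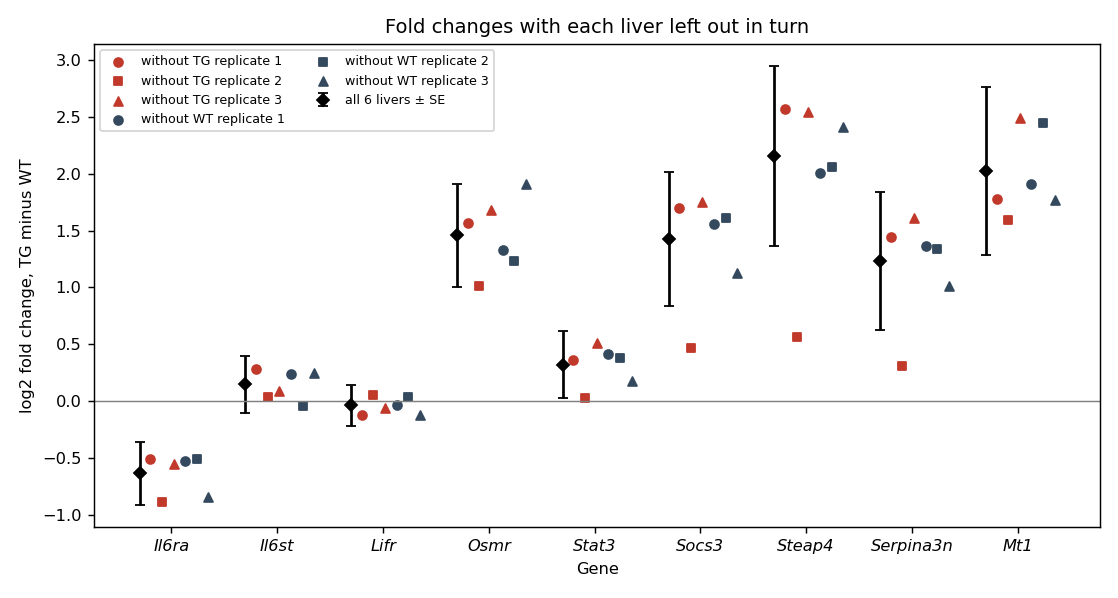
Log2 fold change, TG minus WT (vertical axis), of the 9 tested genes from all 6 livers (black, ± SE) and with each liver left out in turn (coloured markers). Without TG replicate 2 the values of Stat3, Socs3, Steap4 and Serpina3n lie at 0.03 to 0.56, and those of Osmr and Mt1 stay at 1.01 or above.

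The ligands of the gp130 family were near the limit of detection, and 2 of 10 passed the filter. Il6 had 13, 6 and 3 counts in TG replicates 1 to 3, against 2, 4 and 7 counts in WT replicates 1 to 3. Lif had 22, 43 and 8 counts in TG livers and 4, 2 and 9 in WT livers. Osm, the ligand of Osmr, had 10, 21 and 2 counts in TG livers and 0, 2 and 0 in WT livers. The counts of Lif and Osm were highest in TG replicate 2, and those of Il6 were highest in TG replicate 1. Clcf1, a gp130 ligand that passed the filter, averaged 12.0 ± 2.72 CPM in TG against 6.01 ± 2.61 CPM in WT livers (SD, n = 3 each), with all TG livers above all WT livers and an edgeR unadjusted p of 0.0299 (adjusted p = 0.391). Ctf1 averaged 3.74 ± 1.16 CPM in TG against 6.25 ± 3.27 CPM in WT livers, and its groups overlapped. Among the 8 tested receptor genes, 4 had a positive and 4 a negative log2 fold change, with a median of -0.01, between -0.11 and 0.07 with 1 liver left out, against -0.03 for all genes. Lepr, the leptin receptor, averaged 28.7 ± 16.8 CPM in TG against 45.5 ± 7.87 CPM in WT livers (edgeR adjusted p = 0.585).

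The carriers of the signal, Janus kinases, STATs and the adaptors that bind gp130 or its kinases, had 12 of 13 log2 fold changes above 0. Their median was 0.33, and 0.13 without TG replicate 2. At an unadjusted edgeR p under 0.05, 3 were higher, against 8.68% of all tested genes. The 1 value below 0 was -0.09, of the adaptor gene Gab1, which was chosen after its value was seen. Stat5a, which along with Stat5b carries growth hormone signals in hepatocytes, averaged 20.9 ± 0.905 CPM in TG against 15.0 ± 1.11 CPM in WT livers (SD, n = 3 each). Tyk2, a Janus kinase that binds gp130, averaged 33.0 ± 3.31 CPM in TG against 24.1 ± 1.99 CPM in WT livers. For both, all TG livers lay above all WT livers, by 0.48 (SE 0.16) for Stat5a and 0.45 (SE 0.15) for Tyk2 on the log2 scale, with edgeR adjusted p of 0.363 for Stat5a and 0.375 for Tyk2. The third, the leukocyte kinase Jak3, averaged 33.1 ± 13.9 CPM in TG against 17.8 ± 3.82 CPM in WT livers and overlapped, and Stat6, which answers IL-4, averaged 86.6 ± 14.5 CPM in TG against 66.5 ± 1.30 CPM in WT livers. Stat5b had a log2 fold change of 0.08 (edgeR unadjusted p = 0.696).

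Of 14 tested inhibitors of cytokine signalling, Socs3 among them, 10 had a positive log2 fold change. At an unadjusted edgeR p under 0.05, 3 were higher, against 8.68% of all tested genes. The median was 0.19, between 0.12 without WT replicate 1 and 0.32 without WT replicate 3. Besides Socs3 the 3 higher genes were the phosphatase genes Ptpn6, with 32.6 ± 16.7 CPM in TG against 16.95 ± 1.77 CPM in WT livers, and Ptpn1, with 67.3 ± 36.4 CPM in TG against 35.6 ± 1.89 CPM in WT livers (SD, n = 3 each). Both had their highest level in TG replicate 2 and overlapped with WT through TG replicate 3. Socs1, also a feedback inhibitor, held at most 12 counts in a liver and was not tested. Of 14 STAT3 target genes for transcription factors and survival, 10 had a positive log2 fold change and none passed an unadjusted p of 0.05 in edgeR or an adjusted one in DESeq2. Their median was 0.22, between 0.06 without WT replicate 1 and 0.42 without WT replicate 3, and 0.11 without TG replicate 2. Fgl1, a secreted hepatocyte protein gene, had 1100, 1807 and 223.3 CPM in TG livers and 478.2, 560.9 and 414.1 CPM in WT livers, with TG replicate 3 the lowest liver of all. Pim1, a survival kinase, averaged 32.5 ± 15.8 CPM in TG against 20.4 ± 2.38 CPM in WT livers, and Cebpb, a partner of STAT3 at acute phase genes, 52.3 ± 7.73 CPM in TG against 85.1 ± 77.5 CPM in WT livers.

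The acute phase list, mostly genes of secreted proteins that hepatocytes make under IL-6, had mainly positive fold changes. Of 24 tested of 27, 23 had a positive log2 fold change, and the other, Hamp, stood at -0.02. The median was 0.98. At an unadjusted edgeR p under 0.05, 9 were higher, against 8.68% of all tested genes, and none was called after edgeR adjustment. DESeq2 called 6 as higher at an adjusted p under 0.05, against 2.46% of all genes. Relative to the WT mean their median was 0.81, 1.91 and -0.10 in TG replicates 1 to 3, against 0.20, 0.15 and -0.23 in WT replicates 1 to 3. TG replicate 3 was thus inside the WT range, and without TG replicate 2 the median log2 fold change was 0.33. The list was drawn up with earlier results of these livers known. Cd14, which presents bacterial lipids and is also made by macrophages, had 94.1, 241.1 and 40.9 CPM in TG livers and 7.18, 16.3 and 21.9 CPM in WT livers. Saa2, a serum amyloid A gene, had 172.9, 2663 and 10.6 CPM in TG livers and 9.14, 3.33 and 5.51 CPM in WT livers. Neither overlapped between groups. The log2 difference of Cd14 was 3.05 (SE 0.69; DESeq2 adjusted p = 0.000861, edgeR adjusted p = 0.343) and that of Saa2 was 7.30 (SE 1.91; DESeq2 adjusted p = 0.00324, edgeR adjusted p = 0.343).

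Relatives of the target genes gave mixed values. In the STEAP family, Steap3, a ferrireductase, averaged 41.4 ± 16.0 CPM in TG against 32.9 ± 10.5 CPM in WT livers (SD, n = 3 each), and Steap2 averaged 26.8 ± 7.60 CPM in TG against 26.0 ± 5.37 CPM in WT livers. In the Serpina3 cluster, Serpina3g averaged 16.6 ± 6.87 CPM in TG against 7.53 ± 3.35 CPM in WT livers, with an edgeR unadjusted p of 0.0379 (adjusted p = 0.417). Serpina3m, by contrast, averaged 394.1 ± 137.1 CPM in TG against 484 ± 125.2 CPM in WT livers. Of 13 tested metallothionein and zinc genes only Mt1 passed an unadjusted edgeR p of 0.05 (background 8.68% higher, 2.37% lower). The list's median log2 fold change was 0.02, between -0.03 and 0.20 with 1 liver left out. The zinc importer gene Slc39a14, itself an IL-6 target, averaged 404.4 ± 176.6 CPM in TG against 308.1 ± 62.9 CPM in WT livers, highest in TG replicate 2 at 607.8 CPM.

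Glucocorticoids act beside IL-6 on Mt1 and on acute phase genes. Of 11 tested genes in the glucocorticoid-induced list, 3 had a positive and 8 a negative log2 fold change. The list also holds Nr3c1, the gene of the glucocorticoid receptor itself, at -0.12. At an unadjusted edgeR p under 0.05, 2 were higher and 1 lower, against 8.68% and 2.37% of all tested genes. The median was -0.19, between -0.37 without WT replicate 3 and 0.00 without WT replicate 2, and -0.01 with library size alone. Tsc22d3, a glucocorticoid-induced leucine zipper gene, averaged 47.4 ± 7.68 CPM in TG against 68.8 ± 10.8 CPM in WT livers, with all TG livers below all WT livers (log2 fold change -0.54, SE 0.19; edgeR adjusted p = 0.386). Tat, a hepatocyte enzyme gene of tyrosine breakdown, averaged 1630 ± 438.6 CPM in TG against 2684 ± 779.4 CPM in WT livers. The higher genes were Cdkn1a, a cell cycle inhibitor that p53 also induces, with 74.8 ± 25.1 CPM in TG against 21.7 ± 11.2 CPM in WT livers, and the phosphatase gene Dusp1, with 179.8 ± 34.2 CPM in TG against 90.0 ± 42.8 CPM in WT livers. Cdkn1a was called by DESeq2 (adjusted p = 0.0184) and not by edgeR (adjusted p = 0.343).

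**Figure D5:**
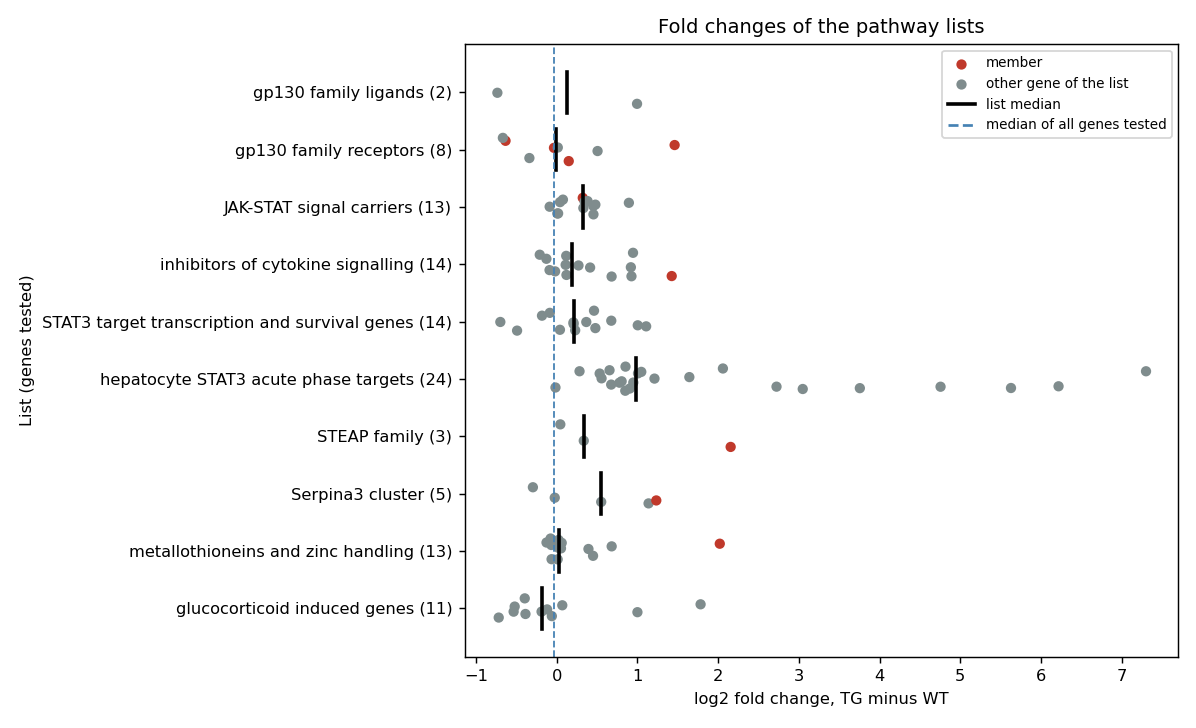
Log2 fold change, TG minus WT (horizontal axis), of every tested gene in 10 lists, with the number of genes in brackets, the 9 genes described here in red, list medians as black lines and the median of all tested genes, -0.03, as a dashed line. The acute phase list has the highest median, 0.98, and the glucocorticoid-induced list the lowest, -0.19, which was 0.00 without WT replicate 2.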

How the data were processed

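The submitters' protocols describe liver RNA extracted with Trizol and sequenced with the VAHTS Universal V6 kit, although genomic DNA is entered as their molecule. TopHat, Cufflinks and build mm10 appear in the submitters' processing notes. For the counting program, annotation and strandedness, nothing is stated in the sources used here. The authors deposited raw read counts for each Ensembl identifier, and all 6 columns were used. Symbols matched 52403 identifiers and left 147 without one.

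Genes were filtered with filterByExpr by group and compared with edgeR 4.0.16 (R 4.3.3; TMM scaling, robust quasi-likelihood test, two-sided) at an adjusted p under 0.05. The common biological coefficient of variation was 0.329. CPM are TMM-scaled. Fits were tested on simulated data. Alternatives were 3 other scalings, 2 other filters, DESeq2 1.42.0, limma 3.58.1 voom, a replicate block and leaving out each liver. Ratios were tested by exact permutation. A planned ratio of Mt1 to Mt2 was not possible. The replicates are mice in the design text, and nothing says whether they shared litters.

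The members, lists and rules were chosen with earlier results of these data known. The genes named are the 10 members and, from each list, some of the up to 4 with the smallest unadjusted p, with untested ligands and markers given by their counts. Some genes that the rules took are not reported here. The markers of B and plasma cells (3 of 6 higher at an unadjusted edgeR p under 0.05), T and NK cells (0 of 4) and cholangiocytes (1 of 6 higher, 1 lower) were also read. The background was 8.68% of all tested genes higher and 2.37% lower in that test.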

Additional observations from a re-analysis of the deposited data

How the results depend on the processing

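The number of genes called at an adjusted p under 0.05 was 0 with edgeR, 373 with DESeq2, 1 with voom, and 0 to 305 with each liver left out. Genes at an unadjusted p under 0.05 numbered 1551 with all livers and 759 to 2328 with 1 left out. Of the 9 tested genes, 0 to 1 were called with 1 liver left out. At an unadjusted p under 0.05 there were 4, against 2 without the filter (5.91% of all genes higher, 2.03% lower) and 2 with voom (6.67% higher, 2.35% lower), Osmr higher and Il6ra lower in both, and 1 to 5 with 1 liver left out. The direction was the same in 122 of 126 values over 14 alternatives. The exceptions were Il6st at -0.04 without WT replicate 2, and Lifr at 0.10 with library size alone, 0.05 without TG replicate 2 and 0.04 without WT replicate 2, and the cause was not tested. With 1 liver left out Il6st lay between -0.04 and 0.28, and Lifr between -0.12 and 0.05. Adjusted p over the alternatives lay between 0.0378 and 0.935 for Mt1, 0.0649 and 0.935 for Steap4, 0.0694 and 0.93 for Osmr, and 0.166 and 0.973 for Socs3. List medians moved by over 1 SD in 17 of 266 values. Higher genes made up 78.5% of those at an unadjusted p under 0.05 with TMM, 93.3% with library size alone and 63.1% without WT replicate 3.

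Same-numbered livers had correlated deviations of 0.14, -0.211 and 0.0942, and other pairs lay between -0.238 and 0.123. Deviations from a mean of 3 livers constrain each other, so these values cannot settle whether the numbers pair the livers. With a replicate block 0 genes were called and 1109 passed an unadjusted p of 0.05, as did 4 of the 9 genes (Il6ra lower, Socs3, Osmr and Mt1 higher; 6.14% of all genes higher, 1.76% lower). In the block, the ratio of Socs3 to Il6ra differed by 1.82 (exact sign-flip p = 0.25, the smallest possible). With 1 liver left out it lay between 1.39 and 2.13. The 3 livers a group and TG replicate 2 limit every value here, and most ligands are limited by depth.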

Other observations

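Some STAT3 target genes varied most among WT livers. Fos, an immediate early transcription factor gene, had 310.5, 403.2 and 282.9 CPM in TG replicates 1 to 3, against 3.05, 317.9 and 176.4 CPM in WT replicates 1 to 3. WT replicate 1 stood far below the other 5 livers. Bcl6, a transcriptional repressor gene, had 13.6, 35.7 and 10.1 CPM in the TG livers and 48.3, 10.5 and 8.58 CPM in the WT livers, with its highest level in that same WT replicate 1. Cebpb had 49.2, 61.1 and 46.7 CPM in the TG livers and 49.2, 174.1 and 32.0 CPM in the WT livers, highest in WT replicate 2, which also held the highest WT level of Mt1. Fos and Bcl6 were chosen after their values were seen.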
